A study of Mus musculus with 30 samples.

Results

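Of the 15964 mouse genes that had a probe set of their own on the arrays, 145 carried the name of a voltage-gated or other potassium channel subunit (72), a calcium channel subunit (21), a sodium channel subunit (10), an ionotropic glutamate receptor (13), a GABA-A receptor (13) or a synaptotagmin (16). They were chosen by the pattern of their symbols, whatever their level. A probe set is a group of short oligonucleotides that together read 1 transcript, and 255 probe sets read these genes. By RefSeq 142 of them code for protein and 3 are long non-coding RNAs, namely Kcnmb4os1, Kcnmb4os2 and Kcnq1ot1, which are named after channel genes. Each gene is given below by the probe set with its highest mean level. A gene is called expressed where its highest intensity over the 10 samples reached the median intensity of its chip, which was 190.5, 255 and 204 on the 3 chips. By that rule 82 of the 145 (56.6%) were expressed, against 76.3% of all 15964 genes.

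These families make up the electrical and secretory equipment of neurons. Sodium and calcium channels carry the inward currents of action potentials and calcium entry, and potassium channels set the resting potential and end each spike. Glutamate and GABA-A receptors are the ligand-gated channels of fast excitatory and inhibitory synapses. Synaptotagmins are membrane proteins of vesicles and other compartments, several of which bind calcium and trigger fusion. Many of these genes are best known from mature neurons, but two-pore potassium channels, calcium channel subunits and some receptor subunits are also transcribed in dividing progenitors and in other tissues.

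The samples followed the first days of neural differentiation of mouse embryonic stem (ES) cells. The line was of 129 origin and carried green fluorescent protein at Sox1, a transcription factor gene of the early neuroectoderm. Sox1-positive cells were sorted from serum-free floating aggregates (SFEB culture) on days 3, 4 and 5, with 1 sample a day. The 4 other aggregate samples were day 1 cells, whose labels give no sort, E-cadherin-negative and E-cadherin-positive cells of day 2, and Sox1-negative cells of day 3, with 1 sample each. The reference was 3 samples of undifferentiated ES cells sorted for E-cadherin, the cell adhesion protein of the undifferentiated state. All samples share the 1 reporter line, and the labels do not say that the ES samples were separate cultures, so a p-value here measures the spread between these samples. Within the Sox1-positive group that spread holds the change over days. Within the other aggregate group it holds differences of both day and sort, so the samples of these groups are not replicates of 1 condition. In RNA from a sorted population, more cells with a transcript and more transcript per cell cannot be told apart.

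The labels were set against markers. In Sox1-positive against ES cells 10 of 11 neural progenitor markers rose and 8 of 10 ES cell markers fell in limma (a linear model across all probe sets, Benjamini-Hochberg adjusted p under 0.05). Sox1 itself stood at 308, 309.7 and 252 on days 3, 4 and 5, against 173, 156 and 138 in ES cells (log2 difference 0.83, adjusted p = 0.0229). Its level was 308 in Sox1-positive and 241 in Sox1-negative cells of day 3. Cdh1, which encodes E-cadherin, was at 565 in E-cadherin-negative and 572 in E-cadherin-positive cells of day 2, so the sort by the protein was not seen in this transcript. Of 11 neuron markers tested, 3 rose (Nefm, Elavl4 and Map2), while Tubb3 differed by -0.04 on the log2 scale (adjusted p = 0.947). Snap25, a defining gene of mature synapses, did not exceed 87.2 in any sample, under the chip median.

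The 82 expressed genes were 40 of 72 potassium channel genes, 13 of 21 calcium channel genes, 5 of 10 sodium channel genes, 7 of 13 glutamate receptor genes, 7 of 13 GABA-A receptor genes and 10 of 16 synaptotagmins. Of these 82, 59 reached the chip median in all 3 groups of samples and 37 did so in every sample. Gria2, Gria3, Cacna1c, Gabrb2 and Kcnip1 reached it in Sox1-positive cells only, and 7 in the other aggregate cells only, while no gene reached it in ES cells only. The groups hold 3, 4 and 3 samples, so these counts depend on how many samples each had. A single sample carried 8 of the 82 over the threshold (Cacna1a, Cacng6, Gria2, Gria3, Kcnc4, Kcne1l, Kcng1 and Syt2). Nearest to the threshold were Kcns2 (164) and Kcnk2 (181) just outside, with a chip median of 190.5, and Cacna1a (262) and Cacng6 (263) just inside, with a chip median of 255.

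The 63 genes not expressed by this rule included many subunits known from mature neurons. Among the glutamate receptors they were Gria1, Gria4, Grik1, Grik2, Grin2a and Grin2b, which encode subunits of AMPA, kainate and NMDA receptors. Among the GABA-A receptors they were Gabra3, Gabra6, Gabrg1, Gabrg3, Gabrr1 and Gabrr2. The sodium channel genes were Scn1a, Scn3a, Scn7a, Scn9a and Scn10a, and the calcium channel genes Cacna1d, Cacna1e, Cacna1g, Cacna1h, Cacna1s, Cacna2d3, Cacnb4 and Cacng1. Of the synaptotagmins Syt5, Syt6, Syt8, Syt10, Syt16 and Syt17 stayed under the median. The other 32 were potassium channel genes, among them the voltage-gated Kcna2, Kcna3, Kcna4 and Kcnd2 and the inward rectifiers Kcnj3, Kcnj5, Kcnj6 and Kcnj10. The files used here give no detection calls, so a low intensity is not proof that a transcript was missing.

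The promoters of 3 genes are shown because the results below turn on these genes or on a repressor of such genes. Kcnk5 was lower in Sox1-positive than in ES cells, Grik3 was higher in Sox1-positive than in the other aggregate cells, and Gria2 holds letters of the binding element of REST, the repressor of neuronal genes in non-neuronal cells. They are RefSeq sequences of GRCm38.p6, taken from the C57BL/6J genome and not from the 129 line. They run from 250 bases before to 50 bases after an annotated start, which need not be the outer limit of the gene. For Gria2 and Grik3 that start lies inside the gene, whose limits on that side are 80804227 and 125490259. In Kcnk5 and Grik3 the capitals mark each CG pair, and in Gria2 they mark a match to GGACAGCGC, read on the opposite strand.
Kcnk5 promoter, chr14:20181733-20182032, minus strand: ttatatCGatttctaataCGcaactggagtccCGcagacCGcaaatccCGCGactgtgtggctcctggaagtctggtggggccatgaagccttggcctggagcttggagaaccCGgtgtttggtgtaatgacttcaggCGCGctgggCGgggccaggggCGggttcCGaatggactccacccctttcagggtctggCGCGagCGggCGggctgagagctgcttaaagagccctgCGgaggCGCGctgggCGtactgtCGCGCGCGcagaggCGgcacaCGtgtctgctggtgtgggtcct
Grik3 promoter, chr4:125490446-125490745, plus strand: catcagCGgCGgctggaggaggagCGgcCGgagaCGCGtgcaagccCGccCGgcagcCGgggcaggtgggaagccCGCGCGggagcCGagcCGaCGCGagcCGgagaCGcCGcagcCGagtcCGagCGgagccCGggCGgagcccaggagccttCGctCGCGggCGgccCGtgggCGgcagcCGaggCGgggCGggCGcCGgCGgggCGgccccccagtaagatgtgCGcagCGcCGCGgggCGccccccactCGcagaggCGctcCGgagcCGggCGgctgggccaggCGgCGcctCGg
Gria2 promoter, chr3:80802786-80803085, minus strand: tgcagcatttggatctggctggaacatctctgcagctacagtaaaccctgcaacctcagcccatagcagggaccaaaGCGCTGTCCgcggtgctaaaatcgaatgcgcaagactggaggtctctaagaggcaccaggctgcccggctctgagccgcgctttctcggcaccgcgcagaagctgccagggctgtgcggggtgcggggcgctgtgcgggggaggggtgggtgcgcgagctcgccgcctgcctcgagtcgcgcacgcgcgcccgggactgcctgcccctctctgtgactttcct
Of the 145 genes 107 had at least 1 promoter in the RefSeq table, 148 promoters in all. The Grik3 window held 50 CG pairs and the Kcnk5 window 26, against a median of 16 in the 78 promoters of expressed members and 7 in all 32851 promoters. The letters GGACAGCGC, searched on both strands, occurred in 133 of 32851 promoters (0.405%) and in 2 of the 148 promoters of these families, those of Gria2 and Kcnj4. The letters TTCAGCACC, from the other side of the same element, occurred in 122 promoters (0.371%) and in none of the 148. A match of letters is not a binding site, and a window without one says nothing of the factor.

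In Sox1-positive cells against ES cells, 4 genes of these families rose and 3 fell. The AMPA receptor gene Gria3, the calcium channel genes Cacng4 and Cacna1c and the non-coding Kcnmb4os1 were higher. The two-pore potassium channel genes Kcnk5 and Kcnk6 and the calcium channel gene Cacna1a were lower. The filter on low intensity left 96 of the 145 genes for the test, 81 of them expressed. The rises were 4.17% of the 96, against 6.4% of all 12934 genes tested, and the falls 3.12%, against 6.17%. Either way 7 of 96 (7.29%) passed, against 12.6% of all genes. At an unadjusted p under 0.05 there were 20 (20.8%), against 27.8% of all genes. The median log2 difference was 0.05 over the 96 genes and -0.01 over all genes tested. The samples of the groups did not overlap for 21 of the 96 genes (21.9%), against 35.1% of all genes. Leaving out 1 sample at a time gave 1 to 5 genes that rose and 1 to 5 that fell. Without ES 2 it was 1 and 1, while over all genes 370 rose and 366 fell, and without day 4 it was also 1 and 1, while over all genes 363 rose and 420 fell.

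**Figure D1:**
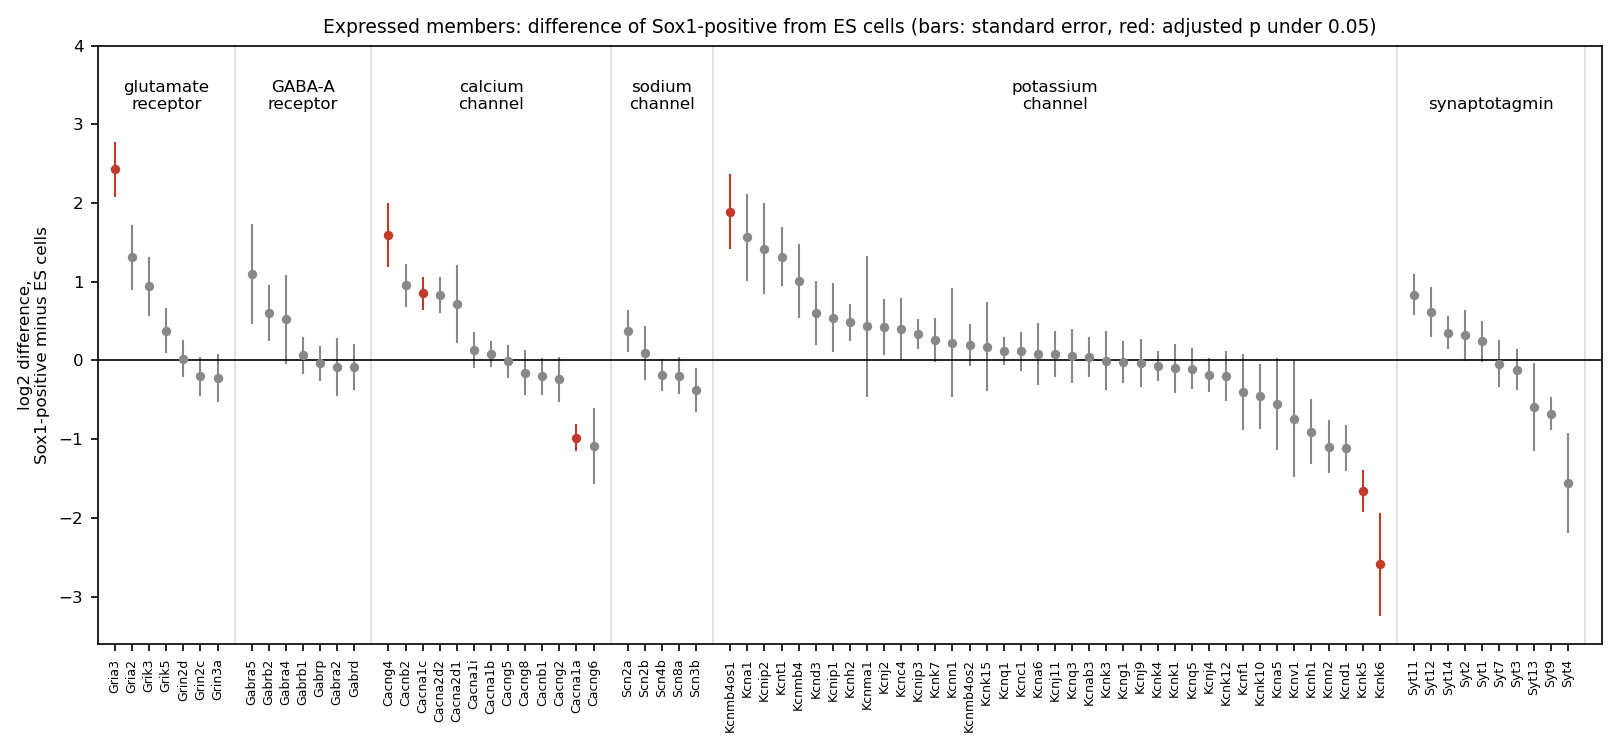
Log2 difference of Sox1-positive cells (3 samples) from ES cells (3 samples) on the y axis for the 81 expressed and tested genes, grouped by family along the x axis. Points are limma estimates, bars their standard errors, and red marks an adjusted p under 0.05: 4 genes lie above 0 and 3 below, and Gria3 at 2.43 and Kcnk6 at -2.59 are the extremes.

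Among the glutamate receptors Gria3, which encodes the GluA3 subunit of AMPA receptors, rose. Its intensity was 169, 268 and 245 in Sox1-positive cells of days 3, 4 and 5, and 103, 183, 107 and 40.1 in day 1, day 2 E-cadherin-negative, day 2 E-cadherin-positive and day 3 Sox1-negative cells. It was 21.2, 59.5 and 15.3 in the 3 ES samples. All Sox1-positive samples lay above all ES samples, and the day 2 E-cadherin-negative sample lay among the Sox1-positive ones. The log2 difference from ES cells was 2.43 (SE 0.35, adjusted p = 0.00562), with means of 228 ± 51.8 and 32.0 ± 24.0 (SD, n = 3 each). The 3 ES values lay under 117, the 30th percentile of the chip, so the size of the difference depends on the pseudocount added before taking log2. It was 3.00 with a pseudocount of 1 and 1.61 with one of 64, against 2.43 with the 16 used here, and Gria3 passed with any 1 sample left out. Its mean over all samples was 121, against the filter threshold of 117. Gria3 would not have entered the test without its Sox1-positive samples, so it had to be high there. It counted as expressed through day 4 alone. Gria2, which encodes the GluA2 subunit that limits calcium entry through AMPA receptors, was at 88.5, 74.3 and 222 in Sox1-positive cells, against 24.9, 66.8 and 27.6 in ES cells. These groups did not overlap either, but the difference of 1.31 did not pass (adjusted p = 0.0864). Gria2 too would not have entered the test without its Sox1-positive samples. Grik3, a kainate receptor subunit, stood at 1237, 2065 and 2208 in Sox1-positive cells, against 676, 835 and 1378 in ES cells. The groups overlapped, with ES 3 above day 3, and the difference of 0.94 did not pass (adjusted p = 0.174). Grin3a, an NMDA receptor subunit, had the lowest value among the expressed glutamate receptors, -0.22 (adjusted p = 0.723). Of the 10 glutamate receptor genes tested 1 rose and none fell, and the median was 0.27.

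No GABA-A receptor gene passed among 9 tested, none of them at an unadjusted p under 0.05 either, and their median was -0.04. The largest rise was that of Gabra5, the alpha 5 subunit, at 217, 45.4 and 208 in Sox1-positive cells, against 67.3, 93.8 and 20.2 in ES cells. The day 4 sample lay inside the ES range, and the difference of 1.09 did not pass (SE 0.64, adjusted p = 0.351). Gabra5 would not have entered the test without its Sox1-positive samples. Gabrd, the delta subunit, differed by -0.09 (adjusted p = 0.902).

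Among 15 calcium channel genes tested 2 rose and 1 fell, and the median was 0.08. Cacng4 encodes a transmembrane protein of the stargazin family, which accompanies AMPA receptors. Its probe set 113873_at had 980.1, 1542 and 2369 in Sox1-positive cells of days 3, 4 and 5, against 345, 418 and 845 in ES cells. The day 3 sample was close to ES 3, but the groups did not overlap (log2 difference 1.59, SE 0.41, adjusted p = 0.0470). It did not pass without ES 1, ES 2, day 4 or day 5 (adjusted p = 0.113 to 0.150). The other tested probe set of Cacng4, 109790_at, had 378, 343 and 411 in Sox1-positive cells, against 37.2, 23.4 and 27.1 in ES cells. In the other aggregate cells it lay between 31.8 and 98.2, so it was high in the 3 Sox1-positive samples only. Its log2 difference from ES cells was 3.13 (adjusted p = 0.000195), with means of 377 ± 33.6 and 29.2 ± 7.11 (SD, n = 3 each), and from the other aggregate cells 2.56 (adjusted p = 0.0181). This probe set passed with any 1 sample left out. Outside the Sox1-positive group all its values lay under 117, the filter threshold of the chip. It would not have entered the test without its Sox1-positive samples, so it had to be high there. It was picked out after its values were seen.

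Cacna1c encodes the pore of the L-type channel Cav1.2. Its intensity was 168, 266 and 260.5 in Sox1-positive cells, against 130.2, 118 and 109 in ES cells, without overlap (log2 difference 0.85, SE 0.21, adjusted p = 0.0416). It did not pass without any 1 of the ES samples, day 4 or day 5 (adjusted p = 0.0657 to 0.142). Its second probe set, 137133_s_at, differed by 1.24 in the same direction (adjusted p = 0.0505). That probe set would not have entered the test without its Sox1-positive samples, so it had to be high there. Cacna1a, the pore of the P/Q-type channel Cav2.1, was at 59.5, 56.2 and 56.9 in Sox1-positive cells, against 125, 141 and 122 in ES cells (log2 difference -0.98, SE 0.17, adjusted p = 0.0120). Those groups did not overlap, but all 6 values lay under the chip median of 255, and only day 1 cells, at 262, reached it. The mean of Cacna1a over all samples, 117.25, only just reached the filter threshold of 117.22. Cacna1a would not have entered the test without its ES samples, so it had to be high there. Cacna1a did not pass without ES 2 or without day 4 (adjusted p = 0.0515 to 0.0598). Cacna2d2, an auxiliary alpha2delta subunit, had 1321, 1584 and 1153 in Sox1-positive cells, against 591, 838 and 840.2 in ES cells. The groups did not overlap and the difference of 0.83 missed the threshold (adjusted p = 0.0547). Cacng6 had the lowest difference of the expressed calcium channel genes, -1.08 (SE 0.48, adjusted p = 0.213), with 139.9, 32.0 and 21.9 in Sox1-positive cells, against 130.4, 113 and 127 in ES cells.

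No sodium channel gene passed among 5 tested, and none had an unadjusted p under 0.05. Their differences ran from -0.37 for Scn3b, an auxiliary beta subunit, to 0.37 for Scn2a, a pore-forming subunit (adjusted p = 0.486 and 0.449). Scn2a had 1143, 988 and 969 in Sox1-positive cells, against 707, 999 and 703 in ES cells, and the groups overlapped.

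**Figure D2:**
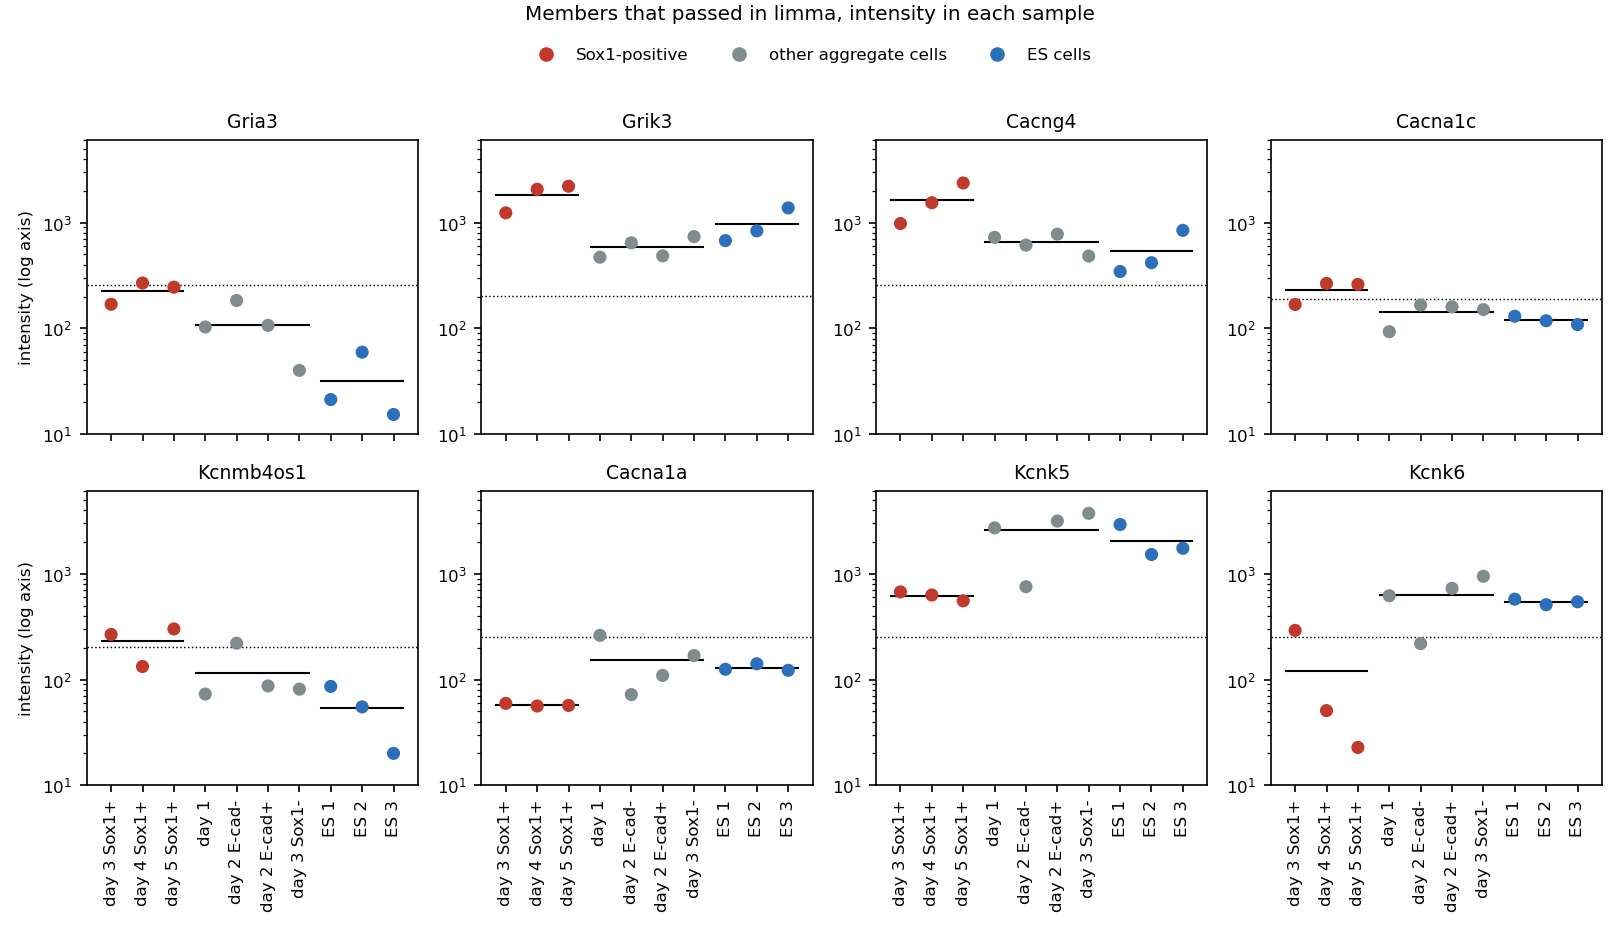
Intensity (log axis) in each sample of the 8 genes that passed in Sox1-positive cells against ES cells or against the other aggregate cells. Lines are group means and the dotted line is the chip median; Kcnk5 in the day 2 E-cadherin-negative sample (755) lies beside the Sox1-positive samples (555 to 674), while the 3 other aggregate samples stand at 2718 to 3730.0.

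Among 47 potassium channel genes tested 1 rose and 2 fell, with a median of 0.05. Both that fell encode two-pore channels, which carry background potassium currents at rest. Kcnk5, which encodes the acid-sensitive TASK-2, was at 674, 630.0 and 555 in Sox1-positive cells, against 2922, 1521 and 1741 in ES cells. In day 1, day 2 E-cadherin-negative, day 2 E-cadherin-positive and day 3 Sox1-negative cells it was at 2718, 755, 3151 and 3730.0. The Sox1-positive samples were the lowest of all 10 samples, and the log2 difference from ES cells was -1.65 (SE 0.27, adjusted p = 0.00895). It passed with any 1 sample left out.

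Kcnk6, which encodes the related TWIK-2, had 291, 50.8 and 22.8 on days 3, 4 and 5 in Sox1-positive cells, against 576, 509.7 and 543 in ES cells. In the other aggregate cells, in the order above, it had 620.0, 219, 728 and 947. Days 4 and 5 were the lowest of the 10 samples, and day 3 lay above the day 2 E-cadherin-negative sample. The log2 difference from ES cells was -2.59 (SE 0.66, adjusted p = 0.0447). It did not pass without any 1 of the ES samples, day 4 or day 5 (adjusted p = 0.0960 to 0.145). The slope over days 3 to 5 was -1.49 log2 units a day and did not pass (adjusted p = 0.203).

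The 7 other expressed two-pore genes were Kcnk1, Kcnk3, Kcnk4, Kcnk7, Kcnk10, Kcnk12 and Kcnk15. None of them passed, with differences from -0.46 for Kcnk10 to 0.26 for Kcnk7 (adjusted p = 0.569 to 0.997). Kcnd1, a subunit of the fast inactivating A-type current, had 399, 558 and 478 in Sox1-positive cells, against 866, 939.8 and 1385 in ES cells. Its groups did not overlap and its difference of -1.11 missed the threshold (adjusted p = 0.0561).

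The potassium channel gene name that rose belongs to Kcnmb4os1, one of a pair of non-coding RNAs that overlap Kcnmb4 on chromosome 10 in RefSeq. Kcnmb4 encodes the beta 4 subunit of the large-conductance calcium-activated potassium channel of neurons. Kcnmb4os1 had 267, 133 and 301 in Sox1-positive cells, against 86.1, 55.1 and 20.0 in ES cells, without overlap (log2 difference 1.89, SE 0.47, adjusted p = 0.0484). It did not pass without ES 2, ES 3, day 3, day 4 or day 5 (adjusted p = 0.0617 to 0.132). Without its Sox1-positive samples it would not have reached the filter on low intensity, so it had to be high there. Kcnmb4 had 366, 642 and 304 in Sox1-positive cells, against 253, 303 and 98.5 in ES cells. The lowest Sox1-positive value only just exceeded the highest ES value, and the difference of 1.01 did not pass (adjusted p = 0.244). Kcnmb4os2 differed by 0.20 (adjusted p = 0.725). RefSeq gives Kcnmb4 and Kcnmb4os1 a synonym in common, so the transcript behind each of the probe sets is uncertain.

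None of 10 synaptotagmins passed, 3 of them had an unadjusted p under 0.05, and the median was 0.10. Syt11, a synaptotagmin that does not bind calcium, had the largest rise, with 3155, 2284 and 4433 in Sox1-positive cells, against 1590.4, 1824 and 1914 in ES cells. The groups did not overlap, and the difference of 0.84 did not pass (SE 0.26, adjusted p = 0.0903). Syt11 had 5 tested probe sets, of which 4 were higher and 1 was lower in Sox1-positive cells. One of them, 168346_r_at, passed, with a difference of 1.80 (adjusted p = 0.0335), and had 832, 1296 and 1809.6 in Sox1-positive cells, against 298, 538 and 258 in ES cells. It did not pass without ES 1, ES 3, day 4 or day 5 (adjusted p = 0.0890 to 0.105). Probe set 166580_r_at differed by -0.20 (adjusted p = 0.788). Syt4, a synaptotagmin of dense-core vesicles, had the largest fall, -1.56 (SE 0.63, adjusted p = 0.184), with 332, 88.8 and 593 in Sox1-positive cells, against 575, 1016 and 908 in ES cells. The day 5 sample lay inside the ES range.

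**Figure D3:**
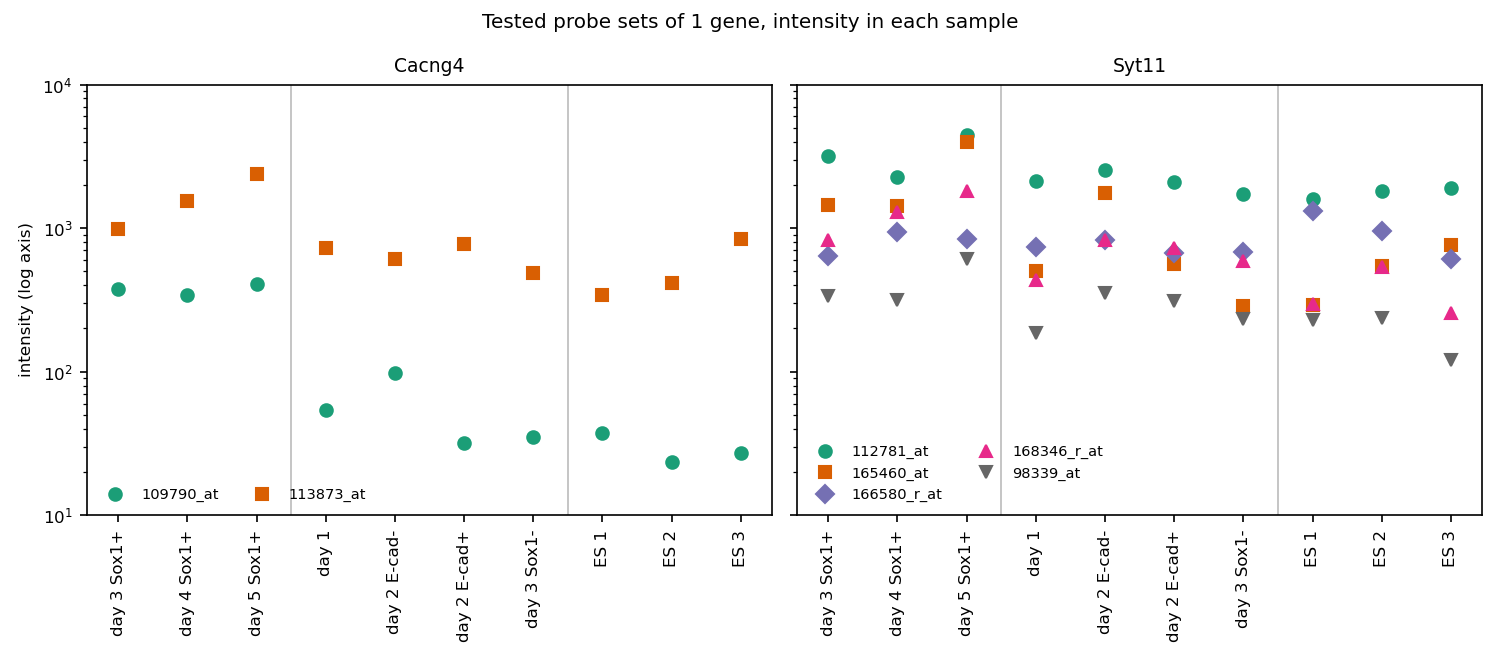
Intensity (log axis) in each sample of all tested probe sets of Cacng4 and of Syt11, each probe set with its own marker and vertical lines between the Sox1-positive, other aggregate and ES samples. Cacng4 probe set 109790_at lies at 343 to 411 in Sox1-positive cells and under 100 in the 7 other samples, and Syt11 probe set 166580_r_at does not share the direction of the other 4.

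Over the families, 24 genes had more than 1 tested probe set, and in 14 of these all probe sets had the same sign of the difference from ES cells. Among their 32 further probe sets 3 passed (9.38%, against 10.5% of all 25690 probe sets tested), those of Cacng4 and Syt11 above and 104409_at of Grik5, a kainate receptor subunit. That probe set had 285, 272 and 309.6 in Sox1-positive cells, against 94.9, 118 and 119 in ES cells, without overlap (log2 difference 1.27, adjusted p = 0.00388). The other tested probe sets of Grik5 had the same sign and did not pass. They were 162074_r_at, with a difference of 0.55 (adjusted p = 0.473), and the one with the highest level, 170039_i_at, with 0.38 (adjusted p = 0.480). The difference between the probe sets was not tested. Probe sets under the filter on low intensity are left out of these counts. No such probe set exceeded 17.9 for Gria3, 49.3 for Syt4 or 44.9 for Gria2 in any sample. The results given above for these genes rest on 1 probe set each. That of Kcnmb4 had 19.9, 59.2 and 51.1 in Sox1-positive cells, against 196, 108 and 16.8 in ES cells. It did not share the higher level in Sox1-positive cells seen with the probe set given above.

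In the 4 other aggregate samples against ES cells no gene of these families passed in limma, and 4 of all 12934 genes (0.0309%) did, 1 upward (0.00773%) and 3 downward (0.0232%). At an unadjusted p under 0.05 there were 9 of 96 (9.38%), against 10% of all genes. The median log2 difference was 0.07 over the 96 and 0.01 over all genes. Gria3 differed by 1.34 (adjusted p = 0.371), Kcnk5 by 0.16 (adjusted p = 0.943) and Kcnk6 by 0.04 (adjusted p = 0.987). This comparison uses the same ES samples as the one above. Over the Sox1-positive days 3, 4 and 5 no gene of the families and none of all genes had a slope that passed in limma. At an unadjusted p under 0.05 there were 10 of 96 (10.4%), against 8.25% of all genes.

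Sox1-positive cells against the 4 other aggregate samples gave 1 gene of these families that rose, Grik3, and none that fell. That is 1.04% of the 96 tested, against 0.611% of all genes that rose, 1.14% that fell and 1.75% either way. Grik3 had 1237, 2065 and 2208 in Sox1-positive cells of days 3, 4 and 5, against 471, 644, 485 and 737 in day 1, day 2 E-cadherin-negative, day 2 E-cadherin-positive and day 3 Sox1-negative cells. Every Sox1-positive sample lay above every other aggregate sample (log2 difference 1.61, SE 0.30, adjusted p = 0.0477). Grik3 did not pass on leaving out any 1 of day 1, day 2 E-cadherin-positive, day 3 Sox1-negative and the 3 Sox1-positive samples (adjusted p = 0.0604 to 0.165). The means were 1837 ± 524 (SD, n = 3) and 584 ± 129 (SD, n = 4). In this comparison day and sort cannot be told apart, since the Sox1-positive samples are also the later ones.

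At an unadjusted p under 0.05 there were 22 of 96 genes (22.9%), against 22% of all genes, and 15 (15.6%) had groups without overlap, against 21.1%. The largest difference upward was Kcnmb4, with 366, 642 and 304 in Sox1-positive cells, against 261, 82.1, 27.2 and 68.9 in the other aggregate cells. Those groups did not overlap, and the difference of 2.11 did not pass (adjusted p = 0.104). The Kcnmb4 probe set under the filter on low intensity did not share this rise. It had 19.9, 59.2 and 51.1 in Sox1-positive cells, against 79.9, 116, 119 and 70.7. The largest downward was Kcnk6 at -2.63 (adjusted p = 0.0935). The day 2 E-cadherin-negative sample decided much of this comparison. Without it 3 genes rose (Grik3, Gria3 and Cacna2d2) and 3 fell (Kcnk5, Kcnk6 and Cacna1a), while over all genes 716 rose and 605 fell. Kcnk5 then differed by -2.33 (adjusted p = 0.00128). Without any 1 of the 6 other samples no gene of the families rose.

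The 2 pairs of sorted fractions show the families within a day, with 1 sample a side and so no test. On day 2, 14 of the 82 expressed genes were higher by 1 or more on the log2 scale in E-cadherin-negative than in E-cadherin-positive cells, 17.1%, against 7.13% of all 12180 expressed genes. In the other direction there were 5 (6.1%), against 4.98%. The 5 with the largest difference upward were Kcnd3 (2.27), Kcne1l (2.19), Kcnt1 (2.19), Gabra4 (2.02) and Cacng2 (1.52). Kcnd3 is an A-type channel subunit, Kcnt1 the sodium-activated channel Slack and Gabra4 a GABA-A receptor subunit. Kcne1l belongs to the small accessory subunits, and Cacng2 encodes stargazin itself. Downward they were Kcnk5 (-2.04), Kcnk6 (-1.66), Kcnc4 (-1.49), Kcna6 (-1.23) and Kcnk1 (-1.16), of which 3 are two-pore channels. Of the other expressed two-pore genes, Kcnk3, Kcnk7, Kcnk10 and Kcnk12 were higher in E-cadherin-negative cells, and Kcnk4 and Kcnk15 lower. Kcne1l counted as expressed only through its E-cadherin-negative sample, and Kcnc4 only through its E-cadherin-positive one, so each had to be high there.

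On day 3, 6 of the 82 were higher by 1 or more in Sox1-positive than in Sox1-negative cells, 7.32%, against 7.13% of all expressed genes, and 11 were lower, 13.4%, against 7.28%. Upward the largest were Kcnmb4 (2.17), Gria3 (1.72), Kcnmb4os1 (1.54), Kcnip2 (1.45) and Cacna2d2 (1.13). Kcnip2 encodes a calcium-binding partner of A-type channels. Downward they were Kcnk12 (-2.49), Kcnk5 (-2.44), Kcnh1 (-2.14), Kcnk6 (-1.65) and Syt2 (-1.50). Kcnk12 is a further two-pore channel gene, Kcnh1 encodes a voltage-gated channel of the ether-a-go-go family, and Syt2 is a calcium sensor of fast release. Syt2 counted as expressed only through its Sox1-negative sample. The second tested probe set of Kcnk12 had 115 in Sox1-positive and 92.7 in Sox1-negative cells of day 3, and that of Syt2 had 89.4 and 80.1. Neither shared the lower level in Sox1-positive cells.

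The 2 sorts share no samples. Cacna2d2, Kcnip2, Kcnmb4 and Kcnmb4os1 were higher by 1 or more in both (4.88% of the 82, against 3.00% of all expressed genes). The Kcnmb4 probe set under the filter on low intensity was higher in neither (116 against 119 on day 2, 19.9 against 70.7 on day 3). Kcnk1, Kcnk5 and Kcnk6 were lower in both (3.66%, against 2.17%). Gabra4 and Kcnt1 were higher in E-cadherin-negative cells of day 2 and lower in Sox1-positive cells of day 3 (2.44%, against 0.452%). Kcnt1 had 268 in E-cadherin-negative and 46.4 in E-cadherin-positive cells of day 2, and 216 in Sox1-positive and 459 in Sox1-negative cells of day 3.

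**Figure D4:**
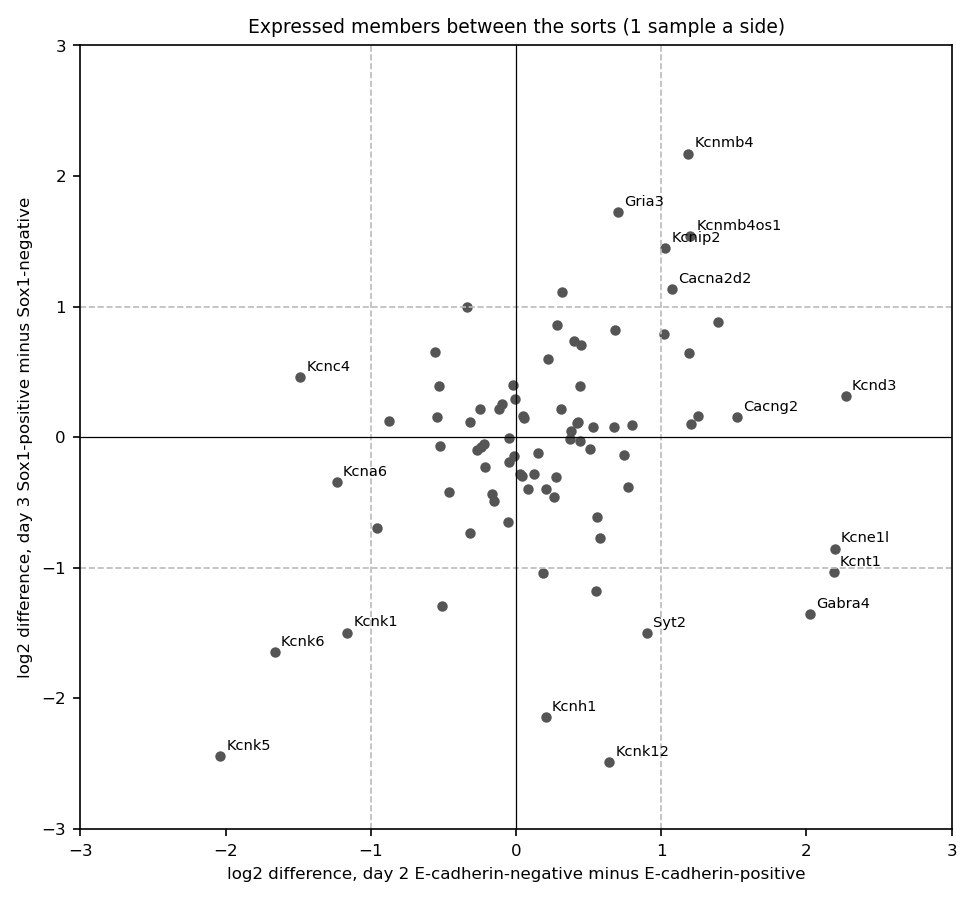
Log2 difference of day 2 E-cadherin-negative from E-cadherin-positive cells (x axis) and of day 3 Sox1-positive from Sox1-negative cells (y axis) for the 82 expressed genes, 1 sample a side. Dashed lines mark differences of 1 either way; Kcnk5 (-2.04 and -2.44), Kcnk6 (-1.66 and -1.65) and Kcnk1 (-1.16 and -1.50) lie past both lines at the lower left and Kcnmb4 (1.19 and 2.17) at the upper right, and Gabra4 and Kcnt1 lie at the lower right.

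How far single samples of 1 kind differ can be seen in the ES cells. ES 1 was higher than ES 3 by 1 or more in 12 of the 82 genes (14.6%, against 4.7% of all expressed genes) and ES 2 in 12 (14.6%, against 3.06%). In the other direction ES 1 was lower than ES 3 in 4 (4.88%, against 5.91%) and ES 2 in 2 (2.44%, against 2.15%). ES 1 was higher than ES 2 in 2 (2.44%, against 2.87%) and lower in 7 (8.54%, against 4.76%). The shares higher than ES 3 (14.6%) lie between the larger shares of the 2 sorts (17.1% and 13.4%). Against the mean of ES 1 and ES 2, ES 3 was lower by 1 or more in 9 of the 82 (10.98%, against 3.13% of all expressed genes) and higher in 2 (2.44%, against 2.55%). The actin control probe sets gave ES 3 the highest ratios of 3' to 5' signal, 1.64 to 1.85 over the 3 chips, a sign of shorter or degraded RNA. Day 5 had 1.33 to 1.44 and day 2 E-cadherin-negative cells 1.23 to 1.33. The part of RNA quality in the differences was not tested. Without ES 3 and day 5 together, Cacng4 alone passed against ES cells, with a difference of 1.66 (adjusted p = 0.0444), while over all genes 324 rose and 302 fell. Gria3 was then at 2.11 (adjusted p = 0.0541) and Kcnk5 at -1.67 (adjusted p = 0.0650).

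Related genes of the synapse were looked at as lists of other symbols, beside which 6.4% of all genes tested rose and 6.17% fell. In Sox1-positive against ES cells 1 of 18 vesicle fusion and presynaptic genes rose, Vamp3, a SNARE protein of general membrane traffic (log2 difference 1.03, adjusted p = 0.0119), and none fell. Of 18 postsynaptic scaffold and adhesion genes 5 rose and none fell, with the largest differences for Dlg3 (1.32, adjusted p = 0.0165) and Grip1 (1.16, adjusted p = 0.0353). Dlg3 did not exceed 183 in any sample, under its chip median of 190.5, so it was not expressed by the rule used here. Grip1 encodes a scaffold that binds the AMPA receptor subunits GluA2 and GluA3. The list medians were 0.15 and 0.16, against -0.01 over all genes. Of 11 transmitter synthesis and transport genes 1 fell, Ddc, the decarboxylase of dopamine and serotonin synthesis (-1.37, adjusted p = 0.00809), and none rose. Of 21 other channels and receptors 1 rose, the glycine receptor beta subunit gene Glrb (1.09, adjusted p = 0.0236), and none fell.

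Of 4 regulators of neuronal genes tested 1 fell, Rest, which encodes the repressor whose letters were searched above. Its intensity was 1242, 894 and 1404 in Sox1-positive cells, against 5189, 3854 and 5909 in ES cells (log2 difference -2.07, adjusted p = 0.00298). In day 1, day 2 E-cadherin-negative, day 2 E-cadherin-positive and day 3 Sox1-negative cells it was 3093, 1512, 2840.1 and 3415. Every Sox1-positive sample lay under every other sample, and the day 2 E-cadherin-negative sample came next. No link between Rest and the genes above was tested.

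Markers of other cells moved in part with these comparisons. Of 6 neural crest markers tested 1 rose in Sox1-positive against ES cells and 2 fell. The summed intensity of that list was 4685 to 11869 in Sox1-positive, 3386 to 5075 in other aggregate and 3367 to 4045 in ES cells. The neuron list summed to 9624 to 19682 in Sox1-positive, 8334 to 16357 in other aggregate and 10347 to 10650.4 in ES cells. No marker of muscle (7 tested), mesoderm and endoderm (6), fibroblasts (3) or blood and endothelium (3) passed, and of 3 glia markers 1 fell. Their part in the results was not tested.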

How the data were processed

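Expression was measured on Affymetrix U74Av2, Bv2 and Cv2 arrays, 30 in all, 3 chips for each of 10 samples. Per the labels, RNA was amplified from an oligo-dT primer. It came from sorted cells, except that the labels of day 1 give no sort. The deposited values are linear intensities per probe set. Their trimmed mean, with 2% left off at each end, was 500.1 to 500.3 on every array, so they were used as scaled by the authors. Neither labels nor headers name the software or any background step, and with so few arrays the precision is limited. Probe sets were named through the platform annotation (29131 with 1 gene, 724 with several, 6846 with none, 198 controls), and only those naming 1 gene were used.

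Values were taken as log2(intensity + 16), which understates the change of low genes. Tests ran on the 25690 probe sets whose mean intensity was at or above their chip's 30th percentile (78.6, 117 and 102). limma 3.58.1 (R 4.3.3) was fitted per chip with lmFit and eBayes, and p was adjusted by Benjamini-Hochberg over the 3 chips. Each gene is the probe set with the highest mean log2 value. Named are all genes that passed, the largest rise and fall of each family, and the 5 largest differences each way between sorts. Gria2, Kcnd1 and the other two-pore genes were added after their values were seen. So were the further probe sets of Cacna1c, Cacng4, Gabra4, Gria2, Gria3, Grik5, Kcnk12, Kcnmb4, Kcnt1, Syt2, Syt4 and Syt11. Genes and lists were chosen with earlier results of these data known. The fits were tested on simulated data. Alternatives were the scaling, pseudocount, filter, probe set rule, samples in the fit and leaving out samples. No protein sequences were used here.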

Additional observations from a re-analysis of the deposited data

Results flagged for a closer look

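For Grik3 the difference between Sox1-positive and other aggregate cells was 1.61 on the log2 scale (limma, adjusted p = 0.0477). Against ES cells Grik3 was at 0.94 in Sox1-positive and at -0.67 in other aggregate cells, and neither of these passed. The difference between the groups passed in 6 of 15 settings and was lost on leaving out any 1 of 6 of the 7 samples.

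For Kcnq5, which encodes a subunit of the neuronal M-current, the 3 Sox1-positive samples (555, 451 and 551) lay under the ES mean on the log2 scale and the 4 other aggregate samples (570.1, 692, 715 and 635) above it. The difference between the groups was -0.32 and this split was not tested. The same split was seen in 2 of the 82 expressed genes of these families (2.44%) and in 288 of all 12180 expressed genes (2.36%).

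Among the 4 other aggregate samples 3 genes had 1 sample far from the other 3, by a gap, relative to the range, above Dixon's 95% critical value. Kcnmb4os1 was at 221 in day 2 E-cadherin-negative cells and at 72.9 to 87.0 in the other 3 (gap over range 0.905). Cacna2d2 was at 1172 in the same sample and at 549 to 652 in the other 3 (0.834). Sox1 was at 152 in day 1 cells and at 241 to 253 in the other 3 (0.878). With 36 genes looked at, chance gives about 1 such gap in 20 groups.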

How the results depend on the processing

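No paired analysis was possible because the ES samples alone carry replicate numbers. The calls among these families are few and most lie close to the threshold. Against ES cells, where 4 genes rose and 3 fell, the counts were 2 and 2 with a pseudocount of 1, 2 and 3 with a filter at the 60th percentile, 7 and 4 with the mean over probe sets, 4 and 1 with all 10 samples in one fit, and 1 and 0 without ES 3 and day 5 together. Leaving out 1 sample at a time gave 1 to 5 that rose and 1 to 5 that fell, with 1 and 1 without ES 2 or day 4. Over all genes, where 828 rose and 798 fell, these settings gave 762 and 742, 782 and 823, 1009 and 886, 805 and 787, and 324 and 302. Gria3 passed in 13 of 14 settings (highest adjusted p 0.0541) and Kcnk5 in 13 of 15 (highest 0.0650). Cacna1a passed in 10 of 14 (highest 0.0977), Cacng4 in 9 of 15 (0.150), and Cacna1c, Kcnk6 and Kcnmb4os1 in 6 of 14, 7 of 15 and 6 of 14 (0.229, 0.191 and 0.214). Probe set 109790_at of Cacng4 passed in 13 of 13 settings, with differences of 2.24 to 3.67, and 104409_at of Grik5 in 13 of 13. Gria2, Gria3, Gabra5 and Kcnmb4os1 would not have reached the filter on low intensity without their Sox1-positive samples. Nor would probe sets 109790_at of Cacng4 and 137133_s_at of Cacna1c. Cacna1a would not have reached it without its ES samples.

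Against the other aggregate cells, where 1 gene rose and none fell, none rose with quantile normalization, with a pseudocount of 1 or without a filter, and 2 rose with the filter at the 60th percentile or the mean over probe sets. With all 10 samples in one fit 3 fell. Over all genes, where 79 rose and 147 fell, these gave 60 and 98, 33 and 85, 21 and 57, 222 and 240, 150 and 230, and 322 and 378. Leaving out 1 sample gave 0 to 3 that rose and 0 to 3 that fell. Grik3 passed in 6 of 15 settings (adjusted p 0.0259 to 0.165). In the other aggregate cells against ES cells, and for the slope on day, the counts were 0 in every setting tried.

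With a threshold of 2 instead of 1 the day 2 sorts gave 4 higher and 1 lower, and the day 3 sorts 1 higher and 3 lower. By mean intensity 55 of the 145 genes were expressed, and by the second highest intensity 74. Differences near 0 turned sign. Gabrd was at 0.044 without ES 3, 0.057 without day 4 and 0.083 without ES 3 and day 5 together, and ran from -0.27 to 0.057 with 1 sample left out. Grin3a was at 0.016 without ES 1 and ran from -0.36 to 0.016, and Scn2a was at -0.019 with the mean over probe sets. For these the cause was not tested. Leaving out ES 3 and day 5, or ES 3 and the day 2 E-cadherin-negative sample, was chosen after seeing the data.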
